A study of Mus musculus with 6 samples.

Results

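The 8 genes described here, Clec4n, Clec4b1, Clec4a1, Clec4a2, Clec4a3, Clec7a, Siglece and Lilra6, encode cell-surface receptors that myeloid cells use to read sugars and self ligands. They were taken by symbol from the deposited tables, and all 8 were among the 24424 genes of the count table. All 8 also passed the filter on low counts, as 8 of the 14548 genes tested. The genes are taken to have been selected on their read counts in Bcl11b KO against WT regulatory T cells, in which they stood high in KO. That contrast is therefore given as a description of the choice, with no test.

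The libraries came from sorted mouse regulatory T cells, a Foxp3-dependent lineage that keeps other immune cells in check, taken from spleen and peripheral lymph nodes. The KO EAE group held 2 libraries of the genotype KO_EAE, made from cells labelled as taken at EAE. EAE commonly denotes experimental autoimmune encephalomyelitis, in which mice develop a disease of the myelin sheath. The KO group held 2 libraries of the genotype KO at steady state. Both of these groups carry the strain label Bcl11bF/WT Foxp3YFP-Cre +/-, in which Cre recombinase is driven from the Foxp3 locus. The WT group held 2 libraries at steady state with the strain label Bcl11bF/F and no Cre named. The strain label of the KO groups names 1 floxed and 1 wild-type Bcl11b allele, whereas their genotype label says KO. KO below means the libraries so labelled. No WT library at EAE was analysed here, and nothing in the labels ties the replicates to different animals, so the p-values measure the spread between these libraries, which may be technical.

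C-type lectin receptors bind carbohydrates on microbes and on damaged or self cells. Several activating members have no signalling tail of their own and pair with the Fc receptor gamma chain, the product of Fcer1g, whose tyrosine motif recruits the kinase Syk and, through Card9, turns on inflammatory genes. Inhibitory members, sialic acid binding Siglecs and the inhibitory paired immunoglobulin-like receptors carry tyrosine motifs that recruit phosphatases. In spleen and lymph node these receptors are known chiefly from macrophages, monocytes, neutrophils and dendritic cells, not from T cells.

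The count table held 15525373 to 15704030 reads per KO EAE library, 14663542 to 16904312 per KO library and 16501787 to 16512337 per WT library. A limit of 3 reads, which covers counting error only, was 0.177 to 0.205 counts-per-million (CPM). Bcl11b, the targeted zinc finger transcription factor, had 404 and 278 CPM in the KO EAE libraries, 371 and 370 CPM in the KO libraries and 420 and 425 CPM in the WT libraries. Its log2 change was -0.19 ± 0.17 (SE) for KO against WT (edgeR adjusted p = 0.527). In the second deposited table, which covers KO and WT only, Bcl11b had 321 and 249 CPM of recovered reads in KO libraries and 498 and 542 CPM in WT libraries, a log2 change of -0.87 ± 0.14 (SE, edgeR adjusted p = 0.0987). Both KO libraries there lay below both WT libraries, and the authors' deposited table gives -0.80 with an adjusted p of 7.91e-08. These reads cover the whole gene and the labels do not give the deleted part, so they do not check the deletion. The summed CPM of 6 T cell markers was 1090 to 1131 in KO EAE, 1052 to 1144 in KO and 1115 to 1140 in WT libraries. That second table, of normalized values, holds other values under the same library names and is described separately below. In these bulk libraries, fewer cells of a type and less RNA per cell cannot be told apart.

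Macrophage genes moved with the 8 receptors. The summed level of 13 macrophage markers was 1625 to 1836 CPM in KO EAE, 1869 to 2195 CPM in KO and 274 to 297 CPM in WT libraries, and 13 of the 13 were higher in KO than in WT by edgeR, with a median log2 change of 2.75. None of the 13 was at 0 in any group. Over all genes tested, edgeR called 9.41% higher and 3.46% lower in KO against WT. All marker lists were chosen with earlier results of these data known, so their counts of calls are descriptions. Among 9 dendritic cell markers the sum was 297 to 363 CPM in KO EAE, 394 to 435 CPM in KO and 196 to 214 CPM in WT libraries, and 4 of 9 were higher in KO than in WT. Neutrophil markers summed to 26.8 to 127 CPM in KO EAE, 27.6 to 52.2 CPM in KO and 2.94 to 4.19 CPM in WT libraries, with 1 of 6 tested higher in KO. Monocyte markers summed to 187 to 573 CPM in KO EAE, 190 to 264 CPM in KO and 176 to 230 CPM in WT libraries. In KO against WT, 0 of 5 were called by edgeR, 1 had an unadjusted p under 0.05 and 1 was called by DESeq2. Their log2 changes were uneven, from -0.53 in Ly6c2 to 3.10 in Cx3cr1 (edgeR adjusted p = 0.0526), with a median of 0.26. B cell markers summed to 23.1 to 41.3 CPM in KO EAE, 30.4 to 59.8 CPM in KO and 26.9 to 33.2 CPM in WT libraries, with 0 of 6 called by edgeR, 2 with an unadjusted p under 0.05 and 1 called by DESeq2. Over all 14548 genes tested, 4128 had an unadjusted p under 0.05 in KO against WT. NK cell markers, of which Klra8 was at 0 in every group, summed to 94.0 to 184 CPM in KO EAE, 104 to 109 CPM in KO and 73.5 to 77.8 CPM in WT libraries, with 1 of 4 tested higher in KO. The 6 regulatory T cell markers summed to 944 to 1052 CPM in KO EAE, 930 to 960 CPM in KO and 1633 to 1708 CPM in WT libraries, and 6 of 6 were lower in KO than in WT. The part of these other cell types in the receptor values was not tested.

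Of the 8 genes, 6 lie on chromosome 6 and 2 on chromosome 7 (positions from GENCODE M21 on mm10). The 5 Clec4 genes stand on the plus strand within 325 kb, in the order Clec4a1 (chr6:122921848-122934619), Clec4a3 (chr6:122952515-122969875), Clec4b1 (chr6:123049962-123071555), Clec4a2 (chr6:123106428-123143999) and Clec4n (chr6:123229843-123247021). Clec7a (chr6:129461591-129472779, minus strand) lies 6.21 Mb further on, in a different lectin cluster, and the annotation types it as a polymorphic pseudogene although its product is a known receptor. Lilra6 (chr7:3908280-3915503) and Siglece (chr7:43651070-43660161) are both on the minus strand of chromosome 7. None of the 8 shares exon bases with another annotated gene.

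The promoters of 7 of the 8 genes were matched in the RefSeq table (GRCm38.p6), as windows of 250 bases before to 50 bases after a start site. The letters GAGGAA, the core that the myeloid factor PU.1 is known to bind, were searched on both strands, and 6 of the 7 genes had them in a window, Clec4a2 being the exception. Of all 32851 windows in the table, 28.3% held them. That share is per window, whereas a gene was counted if any of its windows matched, so the 2 are not like measures. Clec4a3 and Clec7a had 2 windows each, and Clec4a3 matched only in its second. The 4 windows printed here are shown because the first 2 share the longest common run among the members, because the third belongs to the pattern-recognition receptor Clec7a, and because the fourth alone holds the longer form. Capitals mark GAGGAA or its reverse complement TTCCTC.

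Clec4a1, chr6:122921598-122921897, plus strand: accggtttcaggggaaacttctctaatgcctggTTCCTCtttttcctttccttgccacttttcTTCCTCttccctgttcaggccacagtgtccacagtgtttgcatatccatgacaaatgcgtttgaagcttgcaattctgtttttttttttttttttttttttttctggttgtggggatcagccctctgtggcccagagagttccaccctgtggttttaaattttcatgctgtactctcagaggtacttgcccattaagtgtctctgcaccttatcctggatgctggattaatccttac
Clec4a3, second start site, chr6:122952394-122952693, plus strand: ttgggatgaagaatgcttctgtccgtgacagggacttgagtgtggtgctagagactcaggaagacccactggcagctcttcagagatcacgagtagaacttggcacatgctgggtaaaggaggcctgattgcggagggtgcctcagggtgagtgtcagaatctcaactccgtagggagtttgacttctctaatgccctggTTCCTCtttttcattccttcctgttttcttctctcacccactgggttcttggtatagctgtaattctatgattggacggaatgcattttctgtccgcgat
Clec7a, chr6:129472730-129473029, minus strand: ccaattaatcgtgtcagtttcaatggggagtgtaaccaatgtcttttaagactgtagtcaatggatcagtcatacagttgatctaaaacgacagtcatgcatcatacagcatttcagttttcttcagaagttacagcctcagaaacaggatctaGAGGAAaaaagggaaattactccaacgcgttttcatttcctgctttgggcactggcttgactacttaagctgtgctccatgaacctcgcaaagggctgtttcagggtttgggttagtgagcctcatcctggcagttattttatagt
Lilra6, chr7:3915452-3915751, minus strand: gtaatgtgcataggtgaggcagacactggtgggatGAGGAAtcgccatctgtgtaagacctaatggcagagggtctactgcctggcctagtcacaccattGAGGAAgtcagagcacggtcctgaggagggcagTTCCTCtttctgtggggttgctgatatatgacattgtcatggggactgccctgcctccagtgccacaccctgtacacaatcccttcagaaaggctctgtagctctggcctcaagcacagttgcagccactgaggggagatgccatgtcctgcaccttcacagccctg

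The run shared by Clec4a1 and Clec4a3 was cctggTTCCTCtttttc, 17 bases, which began at position -222 from the Clec4a1 start site and at position -55 from the Clec4a3 start site. The longer form GAGGAAGT, found in 3.20% of all windows, was present in Lilra6 only. Among other motifs, TATAAA (13.6% of windows) was found in Clec4a2 and Clec7a, TGANTCA of the AP-1 factors (7.81%) in Clec4a2, the interferon regulatory factor element (3.44%) in Clec4b1, and TTGCNNAA of the C/EBP factors (10.8%) in none. GAGGAAGT contains GAGGAA, so these 2 overlap. A match of letters is a description of the window.

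In the count table, every one of the 8 genes was many times higher in both kinds of KO library than in WT libraries. The differences between KO and WT in the second table, described below, were smaller. In count-table CPM, both KO libraries lay above both WT libraries for 8 of 8 genes, as they did for 32.7% of all genes tested. The fitted log2 changes of KO against WT, the contrast that chose the genes, ran from 3.31 to 5.43 with a median of 4.21, and the median over all genes tested was -0.01. Over all genes, 12.9% were called in that contrast by edgeR's quasi-likelihood test (adjusted p under 0.05), 9.41% as higher and 3.46% as lower.

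Clec4n, which encodes Dectin-2, an Fc receptor gamma-coupled receptor for fungal mannans, had 72.9 and 75.0 CPM in KO EAE libraries, 83.4 and 88.3 CPM in KO libraries and 8.45 and 8.88 CPM in WT libraries. Both KO EAE libraries lay below both KO libraries, both groups stood far above WT, and the replicates of each group lay close to each other. The log2 change was 3.31 ± 0.09 (SE) for KO against WT. It was the smallest change of the 8 although Clec4n had the highest level per length.

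Clec4b1 encodes an activating receptor of dendritic cells that also couples to the Fc receptor gamma chain. It had 9.38 and 10.3 CPM in KO EAE libraries, 9.82 and 11.4 CPM in KO libraries and 0.438 and 0.122 CPM in WT libraries. The WT values rest on 7 and 2 reads, against 173 and 167 reads in the KO libraries, so the ratio of summed counts for KO over WT was 37.8 with a counting interval of 19.7 to 83.4. Of its 50-base transcript words, 8.69% also occur in Clec4a2, so reads there could be assigned to either gene.

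Clec7a encodes Dectin-1, the beta-glucan receptor, whose own cytoplasmic motif recruits Syk. It had 25.6 and 48.5 CPM in KO EAE libraries, 27.7 and 26.5 CPM in KO libraries and 2.63 and 1.22 CPM in WT libraries. KO EAE replicate 2 was the highest library, while KO EAE replicate 1 lay below both KO libraries. That same library, KO EAE replicate 2, also had the highest summed monocyte markers, 573 CPM, and neutrophil markers, 127 CPM, of all 6 libraries.

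Lilra6 belongs to the activating paired immunoglobulin-like receptors, the PIR-A proteins, which pair with the Fc receptor gamma chain. It had 12.8 and 31.9 CPM in KO EAE libraries, 11.01 and 40.3 CPM in KO libraries and 0.125 and 1.04 CPM in WT libraries. Replicate 2 was the higher library in all 3 groups, by 2.48 times in KO EAE, 3.66 times in KO and 8.32 times in WT, so the spread within groups was the widest of the 8 genes. The WT values rest on 2 and 17 reads. Of the 50-base words of its transcripts, 31.3% occur in 9 other genes, 21.7% in Pirb, the inhibitory member of that family, so its counts are uncertain to that extent.

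Clec4a2 encodes DCIR, an inhibitory lectin of dendritic cells and macrophages. It had 30.1 and 38.6 CPM in KO EAE libraries, 35.2 and 45.1 CPM in KO libraries and 1.38 and 2.69 CPM in WT libraries. All 4 KO EAE and KO libraries lay above 30 CPM and both WT libraries below 3 CPM.

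Siglece encodes an inhibitory sialic acid receptor of mouse myeloid cells. It had 62.6 and 67.4 CPM in KO EAE libraries, 81.3 and 91.5 CPM in KO libraries and 3.63 and 4.47 CPM in WT libraries. The groups did not overlap, with KO EAE between KO and WT. The log2 change of KO against WT was 4.41 ± 0.14 (SE).

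Clec4a1 and Clec4a3 encode close relatives of DCIR in the same gene cluster. Clec4a1 had 40.9 and 55.9 CPM in KO EAE libraries, 47.7 and 63.1 CPM in KO libraries and 3.69 and 2.63 CPM in WT libraries. Clec4a3 had 35.6 and 47.0 CPM in KO EAE libraries, 40.9 and 52.3 CPM in KO libraries and 3.19 and 2.76 CPM in WT libraries. For both genes the KO EAE and KO libraries overlapped, with replicate 2 the higher library in each, and WT stood apart below them. Neither gene shares a 50-base transcript word with another gene.

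**Figure D1:**
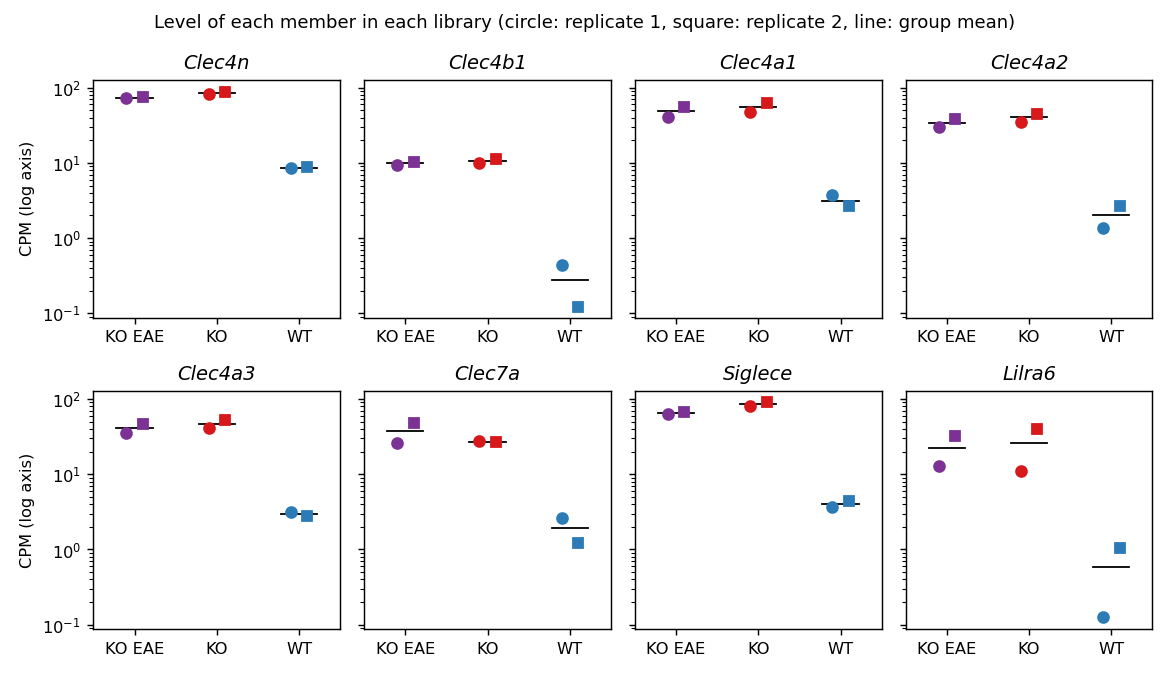
Level of each of the 8 genes in CPM after TMM scaling (vertical log axis) in the KO EAE, KO and WT libraries, with circles for replicate 1, squares for replicate 2 and a line for the mean of the 2. The WT libraries lie below all KO EAE and KO libraries in each panel, down to 0.122 CPM for Clec4b1. For Siglece and Clec4n both KO EAE libraries lie below both KO libraries.

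Per length of exon, the 8 genes kept nearly the same order in the groups. On the RPKM scale (CPM per kilobase of exon, a level), Clec4n led in KO EAE at 52.1 ± 1.04 (SD, n = 2), followed by Siglece at 35.1 ± 1.81, Clec4a3 at 31.1 ± 6.07 and Clec4a1 at 31.1 ± 6.83. Clec7a at 14.1 ± 6.14, Clec4b1 at 12.6 ± 0.873, Clec4a2 at 11.7 ± 2.05 and Lilra6 at 7.33 ± 4.41 followed. In that group Clec4n lay above Siglece and Clec4a1 above Clec7a without overlap of the libraries, and the other neighbours in the order overlapped.

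In KO libraries the RPKM was 60.5 ± 2.42 for Clec4n, 46.7 ± 3.89 for Siglece, 35.5 ± 6.98 for Clec4a1 and 35.1 ± 6.05 for Clec4a3 (SD, n = 2). It was 13.7 ± 2.40 for Clec4a2, 13.5 ± 1.42 for Clec4b1, 10.3 ± 0.310 for Clec7a and 8.41 ± 6.78 for Lilra6. The neighbours that overlapped there were Clec4a1 and Clec4a3, Clec4a2 and Clec4b1, and Clec7a and Lilra6. In WT libraries Clec4n again led, at 6.10 ± 0.216 RPKM. Clec4a3, Siglece and Clec4a1 followed at 2.24 ± 0.232, 2.19 ± 0.322 and 2.03 ± 0.480 RPKM and overlapped one another. Clec7a, Clec4a2, Clec4b1 and Lilra6 came last, at 0.730 ± 0.376, 0.696 ± 0.319, 0.357 ± 0.285 and 0.191 ± 0.212 RPKM, and each overlapped the next.

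The comparison of KO EAE with KO sets cells labelled as taken at EAE against steady state under the same strain label, a contrast the choice of the genes is not known to have used, although it shares the KO libraries with the one that was. No call was made. By edgeR 0 of the 8 genes passed an adjusted p of 0.05, where 0.0137% of all genes tested were called, 2 genes in number. DESeq2 also called 0 of the 8, where it called 167 of 13483 genes. Of the 8, 2 had an unadjusted edgeR p under 0.05, as did 1378 of the 14548 genes tested. The mean was lower in KO EAE than in KO for 7 of 8 genes, Clec7a being the exception, and the median log2 change of the 8 was -0.19, beside -0.00272 over all genes tested.

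The 2 genes with unadjusted p under 0.05 were Siglece and Clec4n, in which both KO EAE libraries lay below both KO libraries, as they did for 21.3% of all genes tested. Siglece had a log2 change of -0.41 ± 0.11 (SE) for KO EAE against KO, with a 95% interval of -0.68 to -0.14 (edgeR adjusted p = 0.496). Clec4n had -0.22 ± 0.08 (SE), with an interval of -0.40 to -0.03 (edgeR adjusted p = 0.510). Neither interval reached the size of the changes against WT. Clec7a, at 0.45 ± 0.37 (SE), was the only gene of the 8 with a positive value (edgeR adjusted p = 0.682), and without KO EAE replicate 2 its value was -0.082. Clec4a1 had -0.19 ± 0.22, Clec4a2 -0.22 ± 0.27, Clec4a3 -0.17 ± 0.19 and Clec4b1 -0.10 ± 0.34 (SE). Lilra6, at -0.19 ± 0.77 (SE), had an interval of -2.06 to 1.67, the widest of the 8. Without KO replicate 2 the values were 0.027 for Clec4a1, 0.019 for Clec4a3, 0.012 for Clec4b1 and 1.03 for Lilra6. Without KO EAE replicate 1 they were 0.022 for Clec4a1, 0.019 for Clec4a3 and 0.33 for Lilra6, so the negative signs of these genes were not stable.

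KO EAE against WT gave calls for all 8. This contrast shares the WT libraries with the one that chose the genes. With no WT library at EAE it holds genotype and disease together, so it adds the KO EAE libraries but is not independent support. Clec4b1, with 7 and 2 WT reads, and Lilra6, with 2 and 17, passed the filter only through the libraries in which they stood high. By edgeR 8 of 8 genes were higher in KO EAE, where 9.36% of all genes tested were called and 7.41% were called higher, and both KO EAE libraries lay above both WT libraries for 8 of 8, as for 29.9% of all genes, while for 30.7% both lay below. The log2 changes ran from 3.09 ± 0.09 (SE) in Clec4n (edgeR adjusted p = 6.74e-05) to 5.23 ± 1.04 in Lilra6 (edgeR adjusted p = 0.0306), with a median of 4.04 beside -0.00659 over all genes.

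Between these ends, Clec4a3 had a log2 change of 3.79 ± 0.23 (SE, edgeR adjusted p = 0.000292) and Clec4a1 one of 3.93 ± 0.27 (edgeR adjusted p = 0.000461). Siglece had 4.001 ± 0.137 (edgeR adjusted p = 7.82e-05), Clec4a2 4.07 ± 0.33 (edgeR adjusted p = 0.000949) and Clec7a 4.26 ± 0.45 (edgeR adjusted p = 0.00278). Clec4b1 had 5.10 ± 0.47 (edgeR adjusted p = 0.00154), with a ratio of summed counts of 35.4 and a counting interval of 18.4 to 78.2. Since Clec4b1 and Lilra6 passed the filter only through libraries in which they stood high, their p-values are descriptions and not support. With all 6 libraries, the Lilra6 call held by DESeq2 (adjusted p = 0.000523). By edgeR it held with the replicate block (adjusted p = 0.00108), without the filter (0.0135) and with DESeq2 size factors (0.0322). Of these calls, only that of Lilra6 was lost when single libraries were left out. It held without KO EAE replicate 1 (adjusted p = 0.0141) and KO replicate 1 (0.0459). It was lost without KO EAE replicate 2 (0.0672), KO replicate 2 (0.0573), WT replicate 1 (0.137) and WT replicate 2 (0.0644), and with only the KO EAE and WT libraries in the fit (0.0628).

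**Figure D2:**
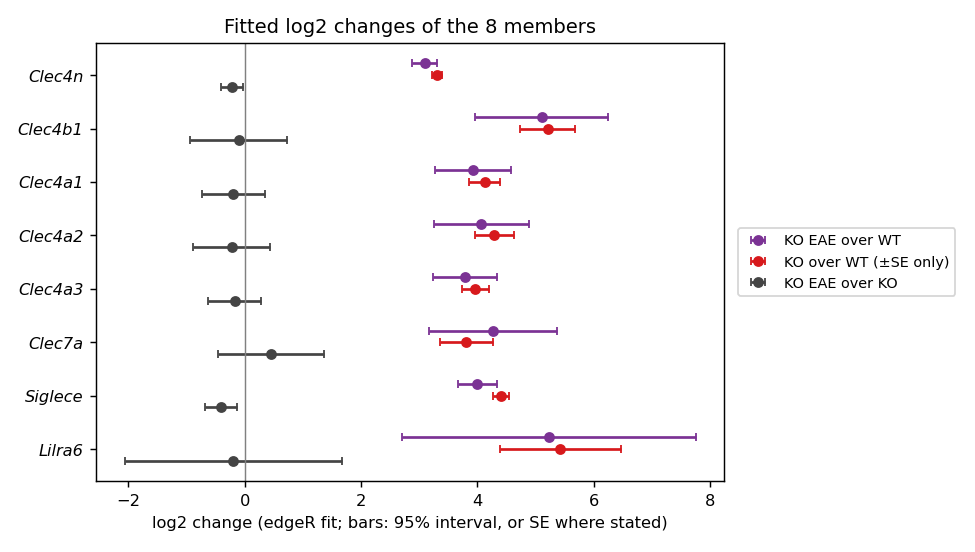
Fitted log2 changes (horizontal axis) of the 8 genes (rows) for KO EAE over WT and KO EAE over KO, each with its 95% interval, and for KO over WT, the contrast that chose the genes, with its SE only. KO EAE over WT and KO over WT lie between 3.09 and 5.43, whereas KO EAE over KO lies between -0.41 and 0.45.

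In the count table, the 8 receptors took a larger share beside macrophage markers in the KO EAE and KO libraries than in the WT libraries. Their summed level was 290.0 and 375 CPM in KO EAE, 337 and 418 CPM in KO and 23.5 and 23.8 CPM in WT libraries. Per 100 CPM of the 13 macrophage markers this was 17.8 and 20.4 CPM in KO EAE, 18.0 and 19.1 CPM in KO and 8.59 and 8.01 CPM in WT libraries. The ratio is a description, since the numerator was chosen for its height in KO.

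**Figure D3:**
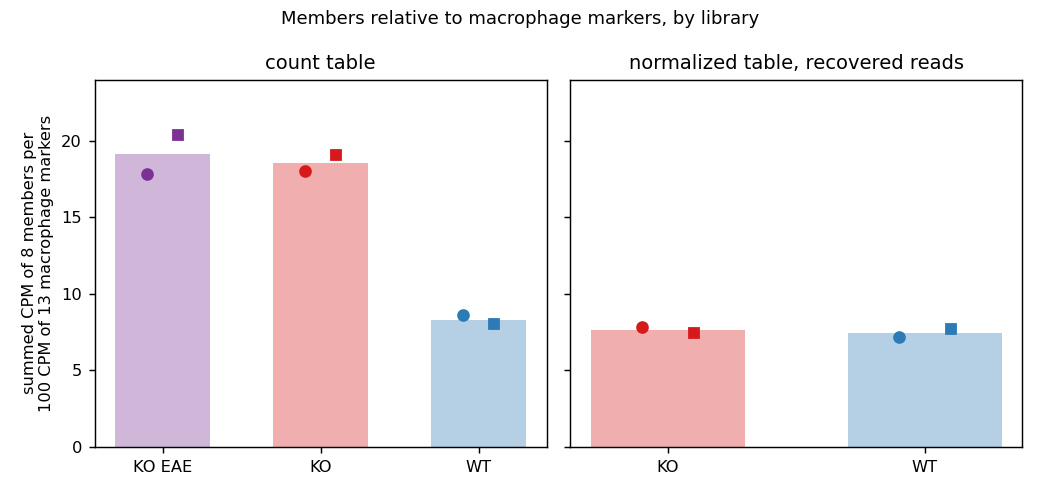
Summed level of the 8 genes per 100 CPM of 13 macrophage markers (vertical axis) by library, with bars for group means and circles and squares for replicates 1 and 2. In the count table KO EAE and KO libraries lie between 17.8 and 20.4 and WT libraries at 8.01 and 8.59, while in the normalized table KO libraries lie at 7.44 and 7.83 and WT libraries at 7.17 and 7.70.

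Other receptors of the same families and their signalling partners were read from 5 lists, 102 genes in all without the 8, of which 97 were in the count table and 75 were tested. In KO against WT, 40 of the 75 were higher, 3 were lower and 32 were not called by edgeR, with a median log2 change of 2.70 beside -0.01 over all genes. Over all genes tested, 9.41% were called higher and 3.46% lower. The 5 lists were chosen with earlier results of these data known, so their counts of calls are descriptions. Without KO replicate 1 the number lower was 1. On the normalized table described below, 1 family gene was called higher and 0 lower, where only 12 of 12253 genes were called in all.

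Among 15 tested C-type lectin receptors, 7 rose and 0 fell in KO against WT, with a median log2 change of 3.38. Clec12a, an inhibitory receptor of the Clec7a cluster, had 51.5 and 53.7 CPM in KO EAE libraries, 56.1 and 70.7 CPM in KO libraries and 3.88 and 3.86 CPM in WT libraries. Its log2 change was 4.03 ± 0.16 (SE) for KO against WT (edgeR adjusted p = 5.14e-05). Mrc1, the macrophage mannose receptor, rose by 3.82 ± 0.23 (edgeR adjusted p = 0.000203), Cd302 by 3.56 ± 0.24 (0.000316) and Clec1b, the platelet and myeloid podoplanin receptor, by 3.60 ± 0.35 (0.00142). Clec10a, a galactose-type lectin, and Clec9a, a dendritic cell receptor for dead cells, rose by 4.20 ± 0.83 (0.0233) and 2.70 ± 0.61 (0.0371) on the log2 scale. These 2 calls were lost when KO replicate 1, KO replicate 2, WT replicate 1 or WT replicate 2 was left out, with adjusted p from 0.0749 to 0.129 for Clec10a and from 0.0529 to 0.219 for Clec9a.

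Among 7 tested Siglecs, 4 rose and 0 fell, with a median log2 change of 3.96. Siglec1, the macrophage sialoadhesin, had 81.1 and 175 CPM in KO EAE libraries, 79.4 and 77.5 CPM in KO libraries and 6.76 and 1.96 CPM in WT libraries. Its log2 change for KO against WT was 4.17 ± 0.58 (SE, edgeR adjusted p = 0.00646). Mag rose by 4.21 ± 0.33 (0.000602), Cd33 by 3.96 ± 0.36 (0.00105) and Cd22, the B cell member, by 2.05 ± 0.35 (0.0133). The Cd22 call was lost without any 1 of the 4 KO and WT libraries (adjusted p from 0.0605 to 0.0942), and that of Siglec1 without KO replicate 2 (0.0514).

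Paired receptors had the largest count, 20 of 26 tested higher in KO than in WT and 1 lower, with a median log2 change of 4.005. Pirb, the inhibitory partner of the PIR-A proteins, had 78.2 and 115 CPM in KO EAE libraries, 126 and 160 CPM in KO libraries and 5.51 and 5.08 CPM in WT libraries. Its log2 change was 4.76 ± 0.25 (SE, edgeR adjusted p = 0.000121). The PIR-A genes Pira6 and Pira2 rose by 4.73 ± 0.26 (0.000141) and 4.55 ± 0.31 (0.000332), Lilra5 by 4.86 ± 0.35 (0.000411), and Pilrb1 and Pilrb2 by 4.46 ± 0.18 (6.13e-05) and 4.37 ± 0.32 (0.00046). The gene that fell was Treml2, which had 140 and 136 CPM in KO EAE, 120 and 123 CPM in KO and 217 and 194 CPM in WT libraries, a log2 change of -0.76 for KO against WT (edgeR adjusted p = 0.00211).

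The adaptors and kinases divided. Of 19 tested, 8 rose and 1, Traf6, fell in KO against WT, with a median log2 change of 0.10. Fcer1g, the gamma chain that Clec4n, Clec4b1 and Lilra6 pair with, had 58.3 and 69.1 CPM in KO EAE libraries, 67.1 and 68.5 CPM in KO libraries and 11.1 and 11.1 CPM in WT libraries. Its log2 change was 2.61 ± 0.11 (SE) for KO against WT (edgeR adjusted p = 7.72e-05). The receptors' log2 changes in this contrast, which chose them, were all above that value in the count table. In the second table the order was turned, with Fcer1g at 3.30 ± 0.20 (SE) on recovered reads and the 7 receptors in that fit at 0.66 to 2.16. The authors' deposited table gives 2.79 for Fcer1g and at most 0.95 for the 8. These are smaller than the fitted changes, and Lilra6 has 0.07 although its signal was 0 in both WT libraries. Their sizes are therefore not comparable with those of the fits. Tyrobp, the other common activating adaptor, rose by 2.34 ± 0.12 (edgeR adjusted p = 0.000107).

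Syk had 88.1 and 121 CPM in KO EAE libraries, 161 and 173 CPM in KO libraries and 14.95 and 13.5 CPM in WT libraries. The groups did not overlap, and its log2 change was 3.55 ± 0.17 (SE) for KO against WT (edgeR adjusted p = 0.000106). Lyn and Fgr, kinases of the Src family, rose by 3.45 ± 0.16 (9.43e-05) and 2.77 ± 0.19 (0.00036), and the phospholipase Plcg2 by 3.69 ± 0.40 (0.00236). Card9, the adaptor downstream of Syk, had 4.43 and 4.50 CPM in KO EAE, 6.07 and 4.78 CPM in KO and 7.19 and 2.94 CPM in WT libraries, and its log2 change of 0.10 ± 0.44 (SE) was not called (edgeR adjusted p = 0.906).

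Of 8 tested cytokine and inflammatory genes, 1 rose and 1 fell. Nlrp3, an inflammasome sensor, rose by 3.38 ± 0.53 (SE, edgeR adjusted p = 0.0101). Il10, an anti-inflammatory cytokine gene that regulatory T cells also express, had 30.5 and 22.04 CPM in KO EAE libraries, 10.96 and 10.5 CPM in KO libraries and 29.8 and 38.6 CPM in WT libraries, and fell by 1.67 on the log2 scale in KO against WT (edgeR adjusted p = 0.005). The Nlrp3 call was lost without any 1 of the 4 KO and WT libraries (adjusted p from 0.0603 to 0.0671), and the Il10 call without KO replicate 1 (0.0589) or KO replicate 2 (0.0613). These 2 genes had the opposite sign in the second table, at -0.24 for Nlrp3 and 0.52 for Il10 on its recovered reads.

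In KO EAE against KO, edgeR called 0 of the 75 genes, 13 had an unadjusted p under 0.05, as did 1378 of all 14548 genes, and DESeq2 called 2, Syk lower and Il10 higher, where it called 167 of 13483 genes. Syk had a log2 change of -0.68 ± 0.15 (SE, edgeR adjusted p = 0.442, DESeq2 adjusted p = 0.0125). In KO EAE against WT, 38 of the 75 were higher and 2, Treml2 and Src, were lower by edgeR. The number lower was 4 without KO EAE replicate 1, 0 without WT replicate 1 and 1 without any other single library. By list this was 5 of 15 lectins higher, 4 of 7 Siglecs higher, 20 of 26 paired receptors higher and 1 lower, 8 of 19 adaptors and kinases higher and 1 lower, and 1 of 8 cytokine genes higher.

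**Figure D4:**
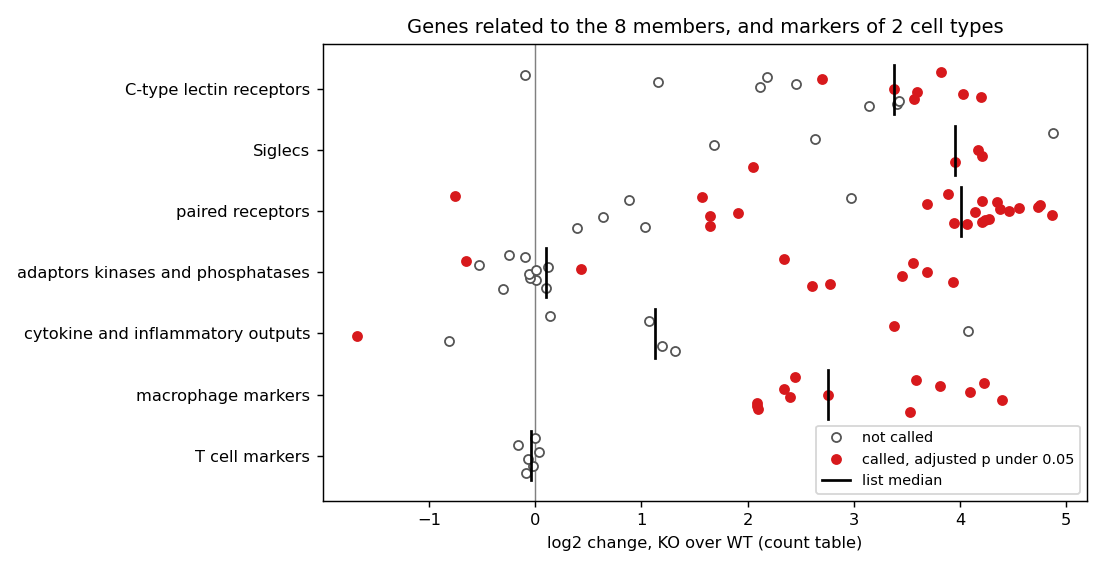
Log2 change of KO over WT in the count table (horizontal axis) for each tested gene of the 5 family lists, without the 8 receptors, and of the macrophage and T cell marker lists (rows), with filled points for genes called by edgeR and bars for list medians. Lectins, Siglecs and paired receptors centre on 3.38, 3.96 and 4.005, macrophage markers on 2.75, adaptors and kinases on 0.10.

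Genes beside the 8 on the chromosome did not all share the change. Of 29 other genes of the count table annotated within 100 kb, 16 were tested, and 6 rose and 0 fell in KO against WT. The 6 were Clec12a, Clec1b and Clec9a beside Clec7a, Clec4a4 in the Clec4 cluster at 3.38 (edgeR adjusted p = 0.0207), and Pira2 and Lair1 beside Lilra6, Lair1 at 2.89 (0.000281). The Clec4a4 value rests on 1 and 3 reads in WT libraries, against 17 and 26 reads in KO libraries. Of the 50-base transcript words of Clec4a2, 3.85% also occur in Clec4a4. In the Clec4 cluster, Clec4d had a log2 change of 2.11 (edgeR adjusted p = 0.205) and Clec4e, which encodes Mincle, one of 2.45 (0.208), and neither was called. Clec4e had 1.73 and 9.32 CPM in KO EAE libraries, 0.851 and 3.68 CPM in KO libraries and 0.438 and 0.367 CPM in WT libraries, again highest in KO EAE replicate 2. The flanking non-lectin genes Foxj2 and Necap1 had log2 changes of -0.12 and 0.08.

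Over the 6 libraries, the pattern most like the mean of the 8, by the root mean square difference of centred log2(CPM + 1) values among 13122 genes, was that of Pld4, an endolysosomal nuclease of myeloid cells, at 0.0691. Pld4 had 84.9 and 106 CPM in KO EAE libraries, 99.4 and 120 CPM in KO libraries and 8.13 and 7.90 CPM in WT libraries. Sirpa at 0.0966, Plxnb2 at 0.0990, Sirpb1a at 0.120 and H2-DMb1 at 0.121 followed. Within the 8 themselves the difference from their mean ran from 0.0660 in Clec4a3 and 0.132 in Clec4a1 to 0.347 in Clec7a and 0.539 in Lilra6.

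The second deposited table gave the same order of KO and WT with smaller differences. In its normalized signal, both KO libraries lay above both WT libraries for 8 of 8 genes, as for 23.9% of the genes in that table's fit. Clec4n had 1590 and 1158 in KO libraries and 275 and 665 in WT libraries. Siglece had 401 and 368 in KO libraries and 120 and 234 in WT libraries. Clec4a3 had 284 and 263 in KO libraries and 187 and 83.0 in WT libraries. All 3 genes had reads in both of these WT libraries, and the gap between the groups was narrower than in the count table.

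Clec4b1 had a signal of 70.3 and 61.8 in KO libraries and 16.5 and 12.9 in WT libraries, and Clec4a1 had 71.1 and 67.8 in KO libraries and 31.8 and 56.0 in WT libraries. Clec4a2 had 84.4 and 129 in KO libraries and 0 and 64.6 in WT libraries, and Clec7a had 61.2 and 73.8 in KO libraries and 0 and 34.5 in WT libraries. Lilra6 was low, at 8.27 and 15.5 in KO libraries, from 10 and 18 recovered reads, and at 0 in both WT libraries. WT replicate 1 was the lower WT library for 5 of the 7 genes with a WT value, Clec4b1 and Clec4a3 being the exceptions.

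On whole reads recovered from that table, the fitted log2 changes of KO against WT were 1.55 ± 0.39 (SE) for Clec4n, 1.12 ± 0.38 for Siglece, 1.03 ± 0.45 for Clec4a3 and 2.16 ± 0.89 for Clec4b1. They were 0.66 ± 0.74 for Clec4a1, 1.71 ± 1.44 for Clec4a2 and 1.95 ± 1.52 for Clec7a, and Lilra6 did not reach the filter. The median over the 7 in the fit was 1.55, beside 0.00776 over all genes. The authors' deposited table gives positive log2 fold changes for 8 of 8, from 0.07 in Lilra6 to 0.95 in Clec4n, with 0.55 for Siglece and 0.42 for Clec4a3. These are smaller than the fitted changes of the 7 genes, so the sizes are not comparable. The authors' DESeq2 adjusted p was 0.000958 for Clec4n, 0.183 for Siglece, 0.385 for Clec4a3, 0.636 for Clec4a2 and 0.842 for Clec4a1. They give none for Clec4b1, Clec7a and Lilra6. Per 100 CPM of macrophage markers, the 8 genes summed to 7.83 and 7.44 CPM in KO libraries and 7.17 and 7.70 CPM in WT libraries of that table, so the 2 groups overlapped on that ratio.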

How the data were processed

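Regulatory T cells had been sorted and sequenced on a NextSeq500 after NEBNext Ultra II library preparation, per the labels' protocols. HISAT2, HTSeq, DESeq2 and the mm10 genome are named in the submitters' processing notes. No version, annotation or strand setting is given in the sources used here. The authors deposited raw read counts for 6 libraries as whole numbers per gene. They also deposited a normalized signal per gene for KO and WT, which the authors had divided by size factors. The authors' comparison of KO with WT gives log2 fold changes with their standard errors, a test score and p-values, per the file headers. Of the normalized values above 0, 100% were whole multiples of 1 read (tolerance 0.02 reads), and edgeR called 12 of 12253 genes on these reads. Each comparison stayed within a table.

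Rows that name no gene were left out, 25 of 24449 in the count table (at most 0.217% of a library's reads) and 27 of 23420 in the normalized table (at most 0.284%). The edgeR 4.0.16 test in R 4.3.3 used filterByExpr (minimum count 10, minimum total 15), TMM scaling, glmQLFit and glmQLFTest on all 6 libraries with 1 coefficient per group, 3 residual degrees of freedom and Benjamini-Hochberg adjustment over 14548 genes at a threshold of 0.05. An SE is approximate, the absolute log2 change over the root of the F statistic. Libraries of a group differed by more than sampling noise (chi-square per degree of freedom 36.5 in KO EAE, 22.0 in KO and 18.8 in WT). The procedure was tested on simulated data. Alternatives were DESeq2 1.42.0, its size factors in edgeR, no filter, the compared groups alone, a replicate block, single libraries left out and the normalized table. Genes named were the 8 receptors, Bcl11b, Fcer1g, Tyrobp, Syk and Card9, at most 6 called genes per list and comparison with the largest change and at least 1 CPM (one of these is not reported here), and the 5 with the most similar pattern. Other genes named (neighbours, and list genes not called) were chosen after their values were seen. The 8 receptors and all lists were chosen with earlier results of these data known. Promoters are from RefSeq on GRCm38.p6, and gene positions are from GENCODE M21.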

Additional observations from a re-analysis of the deposited data

How the results depend on the processing

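In the count table, KO against WT and KO EAE against WT kept their direction for all 8 receptors under every alternative run, and the calls of KO EAE against WT held except that of Lilra6. Numbers of calls among the 75 family genes moved more. With DESeq2, 1 was called higher and 1 lower in KO EAE against KO, beside 0 and 0 with edgeR, and 4 lower in KO EAE against WT, beside 2. That count was 1 with only the compared groups and 1 with the replicate block. Correlations of the replicate differences were 0.197 for KO EAE with KO, -0.0861 for KO EAE with WT and 0.0124 for KO with WT. With 2 libraries per group, these do not show whether libraries of the same replicate number belong together. The replicate block gave 1668 calls over all genes for KO against WT, beside 1873 without it. It gave 0 beside 2 for KO EAE against KO, and 1301 beside 1362 for KO EAE against WT. On the normalized table the median of the receptors was 1.55. There 1 family gene was called higher and 0 lower, where only 12 of 12253 genes were called in all. Nlrp3 (-0.24) and Il10 (0.52) changed sign, and the cause was not tested.

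Leaving out single libraries gave 0 to 1 family genes higher in KO EAE against KO, 28 to 49 higher and 1 to 4 lower in KO against WT, and 30 to 51 higher and 0 to 4 lower in KO EAE against WT. The median of the receptors was 4.01 to 4.39, -0.40 to 0.015 and 3.81 to 4.18 in KO against WT, in KO EAE against KO and in KO EAE against WT. For KO EAE against KO, where none was called, values crossed 0 in Clec4a1 (-0.44 to 0.027), Clec4a3 (-0.39 to 0.019), Clec4b1 (-0.22 to 0.012), Clec7a (-0.082 to 0.84), Lilra6 (-0.99 to 1.03), Fcer1g (-0.22 to 0.031) and Bcl11b (-0.41 to 0.12). The crossings arose without KO replicate 2 (Clec4a1, Clec4a3, Clec4b1, Lilra6), KO EAE replicate 1 (Clec4a1, Clec4a3, Lilra6, Fcer1g) or KO EAE replicate 2 (Clec7a, Bcl11b). Card9 ran from -0.41 to 0.90 in KO against WT and from -0.68 to 0.62 in KO EAE against WT, changing sign without KO replicate 1 or WT replicate 2 in the first and without WT replicate 1 in the second. Calls over all genes ran from 846 to 3087 in KO against WT, 0 to 313 in KO EAE against KO and 603 to 3762 in KO EAE against WT; with DESeq2 they were 2425, 167 and 2227, and with only the compared groups 3121, 0 and 782. Depth limits Clec4b1 and Lilra6 in WT, at 2 to 17 reads.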
